A study of Mus musculus with 16 samples.

Results

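Dux, Zscan4c, Zscan4d, Zscan4f and Zfp352 are 5 of 22367 protein-coding genes in the mm9 annotation, and belong to the genes of the 2-cell-like state. They were chosen by name with the positions of the regions at them already known, so the presence, place and width of those regions are a description and no test was made of them. For each gene, the enriched regions of 3 histone modifications were taken where they overlapped the gene body or lay within 20 kb of an annotated transcription start site, which is called the window here. Widths count each such region in full, also where it runs past the window. The windows of the 5 genes held 6 of the 162760 regions in all lists. The ChIP-seq compared female (XX) with male (XY) mouse embryonic stem (ES) cells to ask whether chromatin differs between the sexes. The lines were C57BL/6 x CAST/EiJ F1 hybrids at passage 7 to 10, all kept in serum and LIF on inactivated mouse embryonic fibroblasts (MEFs) that were depleted before harvest. The labels gave 2 lines per sex for H3K27Ac, H3K27Me3 and H3K4Me1, besides an IgG and an input library per sex, which made 16 samples. The deposited data were 6 lists, 1 per sex and mark, that gave the position of each region without a count, score or replicate. Presence and width are therefore described without an error or a test, and read depth is unknown. The female list was the longer for each mark. It held 28784 regions against 26100 for H3K27Ac, 18534 against 15138 for H3K27Me3 and 39404 against 34800 for H3K4Me1. In these bulk samples, fewer cells with a mark and less of the mark per cell cannot be told apart.

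Dux encodes a double homeobox transcription factor that switches on genes of zygotic genome activation. The Zscan4 genes encode zinc finger proteins with a SCAN domain that act in telomere maintenance, and Zfp352 encodes a zinc finger protein. All are expressed in the 2-cell embryo and, in a small and changing fraction of cells, in ES cell cultures. Active enhancers and promoters carry H3K27Ac, enhancers in general H3K4Me1, and genes silenced by Polycomb H3K27Me3. Dux lies in an array of full and partial copies and the Zscan4 genes in a tandem cluster, so that short reads from one copy can be placed on another.

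The bases just upstream of Dux and of the Zscan4 genes are shown because they let the likeness between copies be seen. Each is the 250 bases that end before the 5′ end of the gene model in mm9, read 5′ to 3′ on the strand of the gene, with CG dinucleotides in capitals. The Dux sequence was chr10:57688455-57688704 on the minus strand and lay inside the female H3K27Me3 region described below. The Zscan4 sequences were chr7:11590821-11591070 on the plus strand for Zscan4c, chr7:11751498-11751747 on the minus strand for Zscan4d and chr7:11983014-11983263 on the plus strand for Zscan4f, and none lay in a region of any list.
Dux: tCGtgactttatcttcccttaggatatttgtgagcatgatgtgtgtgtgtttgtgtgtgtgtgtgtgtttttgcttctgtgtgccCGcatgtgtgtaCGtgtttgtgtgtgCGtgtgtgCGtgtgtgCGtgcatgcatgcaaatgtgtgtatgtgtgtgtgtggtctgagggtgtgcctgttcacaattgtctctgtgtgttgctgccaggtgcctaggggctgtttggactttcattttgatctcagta
Zscan4c: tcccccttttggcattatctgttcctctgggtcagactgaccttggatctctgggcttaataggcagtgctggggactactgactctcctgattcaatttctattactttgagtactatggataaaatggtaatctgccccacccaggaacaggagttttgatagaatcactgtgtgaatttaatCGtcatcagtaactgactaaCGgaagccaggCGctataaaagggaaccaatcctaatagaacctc
Zscan4d: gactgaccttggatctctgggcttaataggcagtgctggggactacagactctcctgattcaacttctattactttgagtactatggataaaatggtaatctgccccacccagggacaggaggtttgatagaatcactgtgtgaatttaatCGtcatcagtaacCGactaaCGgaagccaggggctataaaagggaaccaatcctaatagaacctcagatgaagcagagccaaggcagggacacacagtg
Zscan4f: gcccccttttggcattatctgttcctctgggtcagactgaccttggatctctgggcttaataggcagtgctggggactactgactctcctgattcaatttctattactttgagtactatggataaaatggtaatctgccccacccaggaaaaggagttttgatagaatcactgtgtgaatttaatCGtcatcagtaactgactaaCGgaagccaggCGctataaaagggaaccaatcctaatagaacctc

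Zscan4c and Zscan4f were identical at 248 of 250 aligned positions (99.2%) of this upstream sequence. Zscan4c and Zscan4d were identical at 210 of 216 (97.2%), and Zscan4d and Zscan4f at 209 of 216 (96.8%), where the alignment left out the ends because the Zscan4d model starts at another base. The Dux sequence held 6 CG dinucleotides, each Zscan4 sequence 3 and that of Zfp352 2, against a median of 8 over 22362 protein-coding genes.

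Of 30 combinations of gene and list, 6 held a region. H3K27Ac was present at 3 genes in the female list (Zscan4c, Zscan4f and Zfp352) and at 2 in the male list (Zscan4c and Zfp352). Over all protein-coding genes, 68.7% had an H3K27Ac region in the female list and 67.7% in the male list. H3K27Me3 was present at Dux alone among the 5 genes, and in the female list only, where 53.3% of protein-coding genes had a region in the female list and 47.3% in the male list. H3K4Me1 was absent from all 5 windows in both lists, whereas 72.1% of protein-coding genes had it in the female list and 71.1% in the male list. Genes without H3K4Me1 in either list made up 25.2% of all protein-coding genes. Zscan4d had no region of any mark, as did 15.9% of protein-coding genes.

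**Figure D1:**
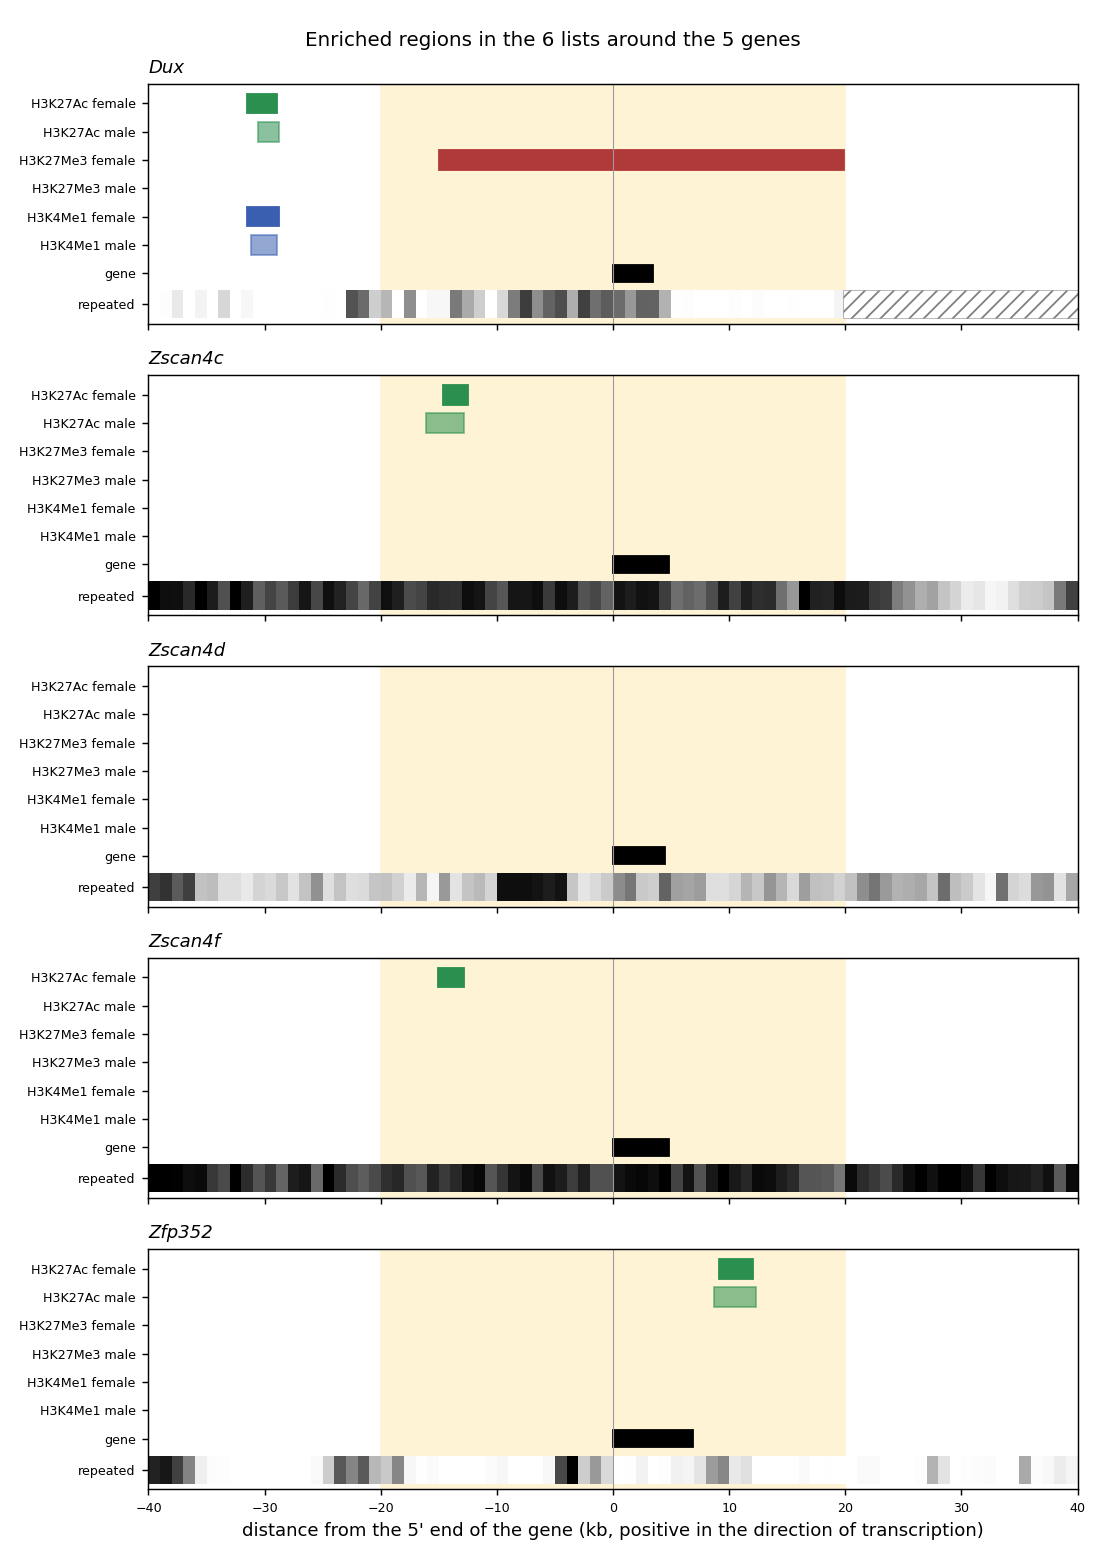
Regions of each list (rows) around the 5 genes against the distance from the 5′ end in kb, with the gene body in black, the 20 kb on either side shaded, and the share of 50-base stretches with a copy elsewhere in grey per kb (white none, black all, hatched an assembly gap). The bar over Dux is the female H3K27Me3 region of 34.8 kb, the H3K27Ac bars lie away from the 5′ ends of Zscan4c, Zscan4f and Zfp352, and the H3K4Me1 rows are empty within the shaded windows.

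Dux (ENSMUSG00000058537.2) was annotated at chr10:57685047-57688454 on the minus strand. The female H3K27Me3 list had a region of 34.8 kb at chr10:57668601-57703399 that covered the whole gene, its upstream sequence and the neighbouring copies. The male H3K27Me3 list had no region that overlapped it, and the nearest male region, chr10:57350601-57354799, lay 334 kb away. A female region without a male one was found for H3K27Me3 at 10.2% of protein-coding genes and the reverse at 4.27%, and 1.2% had it in the female list only with no other mark, as Dux did. The Dux region was wide for its list, whose median was 4.2 kb, and 116 of 18534 regions (0.626%) were at least as wide. H3K27Ac and H3K4Me1 were absent from the window, and the nearest regions of both marks lay at a site just outside it. For H3K27Ac these were 28.9 kb upstream in the female list and 28.7 kb in the male list, and for H3K4Me1 28.7 kb and 28.9 kb.

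The female H3K27Me3 region at Dux spanned repeated sequence and sequence found once in the assembly. A stretch of 50 bases, the length of the reads, was called repeated when it had a perfect copy elsewhere in the assembly on either strand. In the whole region 30.8% of stretches were repeated, against a median of 1.83% in the female H3K27Me3 list, and 2.26% of regions were at least as repeated. The region covered the Dux array, 19.4 kb at chr10:57683590-57703036, where 54.3% of stretches were repeated. It also covered 15.0 kb on the downstream side of the array, at chr10:57668601-57683589, where 1.11% were repeated and 14761 of 14927 stretches occurred once. This little repeated part ended where the assembly has a gap of 86 kb without known bases, chr10:57582614-57668613. The region therefore stopped at the edge of the assembled sequence, and its extent beyond cannot be seen. Any copies inside the gap could not be counted, so a stretch found once in the assembly may occur more often in the genome.

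The array held copies of Dux of differing length and identity. A copy over all 3408 bases of the gene at chr10:57692727-57696133 was 98.3% identical to it, and one of 1481 aligned bases at chr10:57689935-57691412 was 98.2% identical. Copies of about 1300 aligned bases, at chr10:57697597-57698884 and chr10:57701684-57702968, were 90.3% and 94% identical. All of these copies lay inside the same female region. Of the other Dux family genes with a gene model, Duxf4 (annotated as Gm4981) shared the 34.8 kb female H3K27Me3 region. The window of Duxf4 also reached the site just upstream of the Dux window, with H3K27Ac of 2599 bp in the female list and 1799 bp in the male list and H3K4Me1 of 2799 bp and 2199 bp. Duxbl1 on chromosome 14 (annotated as Duxbl), a related double homeobox gene outside the array, had no H3K27Me3. It had 17197 bp of H3K27Ac in the female list and 17398 bp in the male list, and 2799 bp and 11599 bp of H3K4Me1.

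Among female H3K27Me3 regions without overlap in the male list, the region at Dux was the third widest of 7384, whose median width was 3.0 kb. Of the 116 regions at least as wide, 3 (2.59%) were in the female list only. Of the 16 female-only regions of 20 kb or more, 15 (93.8%) had at least 30% repeated stretches, against 20 of 542 shared regions (3.69%) of that width. Their median repeated shares were 73.9% and 1.78%. The Dux region, at 30.8%, was the lowest of those 15, just above the cut of 30%, which was chosen after seeing the regions. Between 10 and 20 kb, 16 of 114 female-only regions (14.0%) and 26 of 1856 shared regions (1.4%) reached 30%. The male list had 5 regions of 20 kb or more without a female partner, and 3 of these (60%) reached it. Below 10 kb, 239 of 7254 female-only regions (3.29%) and 117 of 8752 shared regions (1.34%) reached it. The median share of shared female regions stayed between 1.68% and 1.78% over the 3 width classes, while that of female-only regions was 2.12%, 2.97% and 73.9%. The part of repeated sequence in the difference at Dux was not tested.

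**Figure D2:**
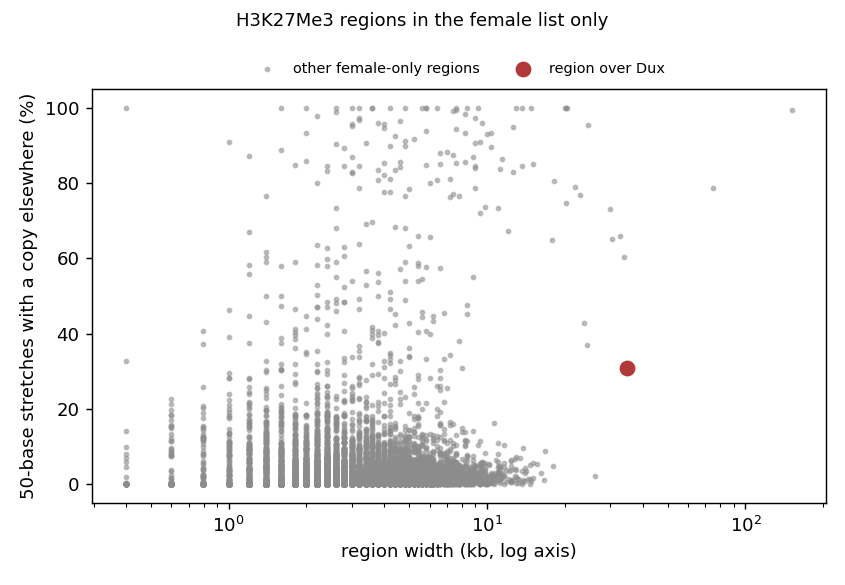
Width (kb, log axis) and share of repeated 50-base stretches (percent) of the 7384 female H3K27Me3 regions with no overlap in the male list, with the region over Dux in red. Of the 16 regions of 20 kb or more, 15 have a share of at least 30%, against 16 of 114 between 10 and 20 kb, and the Dux region lies at 34.8 kb and 30.8%.

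Zscan4c (ENSMUSG00000054272.4, chr7:11591071-11595896, plus strand) had H3K27Ac in both lists at a site upstream of the gene. The female region, chr7:11576401-11578599, was 2.2 kb wide and its near edge lay 12.5 kb from the 5′ end. The male region, chr7:11575001-11578199, was 3.2 kb wide and lay 12.9 kb from the 5′ end. They shared 1799 bp, which was 81.8% of the female and 56.2% of the male region. Both were narrower than the median of their list, 3.6 kb for the female and 3.8 kb for the male list. H3K27Ac in both lists with neither of the other marks was found at 3.1% of protein-coding genes, Zscan4c and Zfp352 among them. Among genes with under 10% repeated stretches in the window the share was 1.4%. It was 8.65% of genes with 10 to 40%, as for Zfp352, 11.6% with 40 to 80%, and 5.75% with 80% or more, as for Zscan4c.

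Zscan4f (ENSMUSG00000070828.3, chr7:11983264-11988090, plus strand) had H3K27Ac in the female list only. The region, chr7:11968201-11970399, was 2.2 kb wide and lay 12.9 kb upstream of the 5′ end. The nearest male H3K27Ac region lay 94.7 kb away, at chr7:12078001-12079799. A female H3K27Ac region without a male one was found at 3.26% of protein-coding genes, the reverse at 2.26%, and the first with no other mark at 0.653%. Zscan4d (ENSMUSG00000090714.1, chr7:11746992-11751497, minus strand) had no region in its window. The nearest H3K27Ac region to its 5′ end was that of Zscan4c, 173 kb away in both lists, and 5.85% of genes were at least as far from a female H3K27Ac region.

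The H3K27Ac sites of Zscan4c and Zscan4f lay on copies of the same sequence. The joint span of the Zscan4c regions, chr7:11575001-11578599, had a copy upstream of Zscan4f, chr7:11967212-11970808, that was 99.3% identical, and both ended 12.5 kb before the 5′ end of their gene. The female list had 2199 bp of H3K27Ac on each copy, and the male list 3199 bp on that of Zscan4c and 0 bp on that of Zscan4f. Upstream of Zscan4-ps2, a copy of 97% identity at chr7:12083625-12087213, 12.4 kb before the 5′ end, had no H3K27Ac in either list. A partial copy of 2026 aligned bases and 93.6% identity lay 19.1 kb upstream of Zscan4d, at chr7:11770592-11772606, and also had none. The remaining full-length copies in the cluster, of 92.7% and 91.6% identity, and one outside it, of 92.7%, had none.

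A stretch of 150 bases of this sequence is shown because it lets the likeness of the marked and unmarked copies be seen. It was taken from chr7:11576831-11576980 (plus strand) at Zscan4c, chr7:11969039-11969188 (plus strand) at Zscan4f and chr7:11771026-11771176 (minus strand) upstream of Zscan4d in mm9. Capitals mark bases that differ from, or are inserted relative to, the Zscan4c copy, 1 in the Zscan4f and 7 in the Zscan4d sequence.
Zscan4c: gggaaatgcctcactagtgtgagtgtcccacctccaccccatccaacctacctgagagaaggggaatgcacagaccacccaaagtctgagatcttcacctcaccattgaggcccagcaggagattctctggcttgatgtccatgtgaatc
Zscan4f: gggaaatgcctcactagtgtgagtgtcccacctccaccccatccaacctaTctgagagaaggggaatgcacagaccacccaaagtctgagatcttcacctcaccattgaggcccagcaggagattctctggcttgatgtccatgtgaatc
Zscan4d: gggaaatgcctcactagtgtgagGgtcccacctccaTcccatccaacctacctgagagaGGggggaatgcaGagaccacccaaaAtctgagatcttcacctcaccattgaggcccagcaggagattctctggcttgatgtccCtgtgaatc

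Most 50-base stretches at these sites could not be told apart by sequence. In the female regions, 85.5% of stretches at Zscan4c and 82.6% at Zscan4f were repeated, and in the male region at Zscan4c 84.7%. The medians of the H3K27Ac lists were 2.64% (female) and 2.42% (male). Of the 2150 stretches of the Zscan4f region, 1653 (76.9%) also occurred in the Zscan4c regions and 375 occurred once in the assembly. A read from a repeated stretch can be placed on either copy, and the part of read placement in the female-only call at Zscan4f was not tested.

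Across the whole Zscan4 cluster, 618 kb from Zscan4b to Zscan4-ps2 with 6 gene models, the 6 lists held 5 regions within 50 kb of its ends, all of H3K27Ac. Besides those of Zscan4c and Zscan4f, they were a female region of 2.2 kb at chr7:12077801-12079999 and a male region of 1.8 kb at chr7:12078001-12079799, which lay in the window of Zscan4-ps2 but outside its copy of the Zscan4c sequence. Zscan4b and Zscan4e had no region. The nearest H3K27Me3 region lay 637 kb from Zscan4f and 1030 kb from Zscan4c in both lists. The nearest H3K4Me1 region of the female list lay 1080 kb from Zscan4f, 1310 kb from Zscan4d and 1470 kb from Zscan4c, and 1.15% of genes were at least as far from one as Zscan4c. The median distance over all genes was 0.354 kb for female H3K4Me1.

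**Figure D3:**
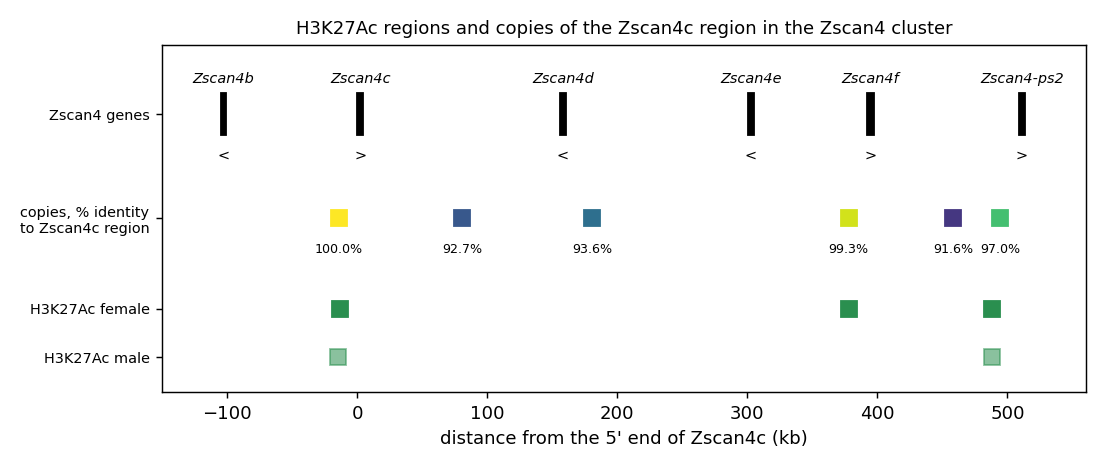
Zscan4 genes (arrowheads give the strand), copies of the Zscan4c H3K27Ac sequence with their percent identity, and female and male H3K27Ac regions along the cluster, against the distance from the 5′ end of Zscan4c in kb; square markers give positions and are wider than the features. The copies of 100% and 99.3% identity have a female region, the first also a male region, and the others have none on them.

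Zfp352 (ENSMUSG00000070902.4, chr4:89885511-89892393, plus strand) had H3K27Ac past its 3′ end in both lists. The female region, chr4:89894601-89897599, was 3.0 kb wide and began 2208 bp after the gene. The male region, chr4:89894201-89897799, was 3.6 kb wide, began 1808 bp after the gene and held the whole of the female region. The nearest female H3K27Me3 region lay 529 kb away and the nearest male one 528 kb. The nearest H3K4Me1 region of the female list lay 772 kb away, and 3.4% of genes were at least as far.

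The sequence under the Zfp352 regions was found across the genome. Outside this site, 75 copies on 20 chromosomes aligned over at least 90% of its length, with a median identity of 86.6% (84.6 to 95.2%). Female H3K27Ac regions overlapped 68 of these copies (90.7%), male regions also 68 (90.7%), and 67 (89.3%) were overlapped by both. Of the bases of these copies, 84.5% lay in female and 85.2% in male H3K27Ac regions, which covered 5.43% and 5.09% of all chromosome sequence. H3K27Me3 overlapped none of the copies in either list, and H3K4Me1 overlapped 4 (5.33%) by female and 2 (2.67%) by male regions. With copies over at least 50% of the length, 261 of 351 (74.4%) had female and 254 (72.4%) male H3K27Ac. The lists thus placed H3K27Ac on most long copies of the sequence at Zfp352, and the absence of H3K4Me1 there was found at nearly all of them. Among the copies most like it, of 88.7% identity or more, H3K27Ac was less regular. The closest, of 95.2%, had 2748 bp in the female and 0 bp in the male list. Copies of 91.2%, 90.4%, 89.6% (chromosome 15) and 89.4% (chromosome 17) had it in both lists. Copies of 90.1%, 89.7%, 89.6% (chromosome 6), 89.4% (chromosome X), 89.2% and 88.7% had 0 bp in both. Of the 50-base stretches in the Zfp352 regions 29.4% were repeated for the female and 29.8% for the male region, and 2082 of 2950 in the female region occurred once. The repeated share of the other copies was not measured, and the part of read placement in the regions on them was not tested.

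The 5 windows differed in how much repeated sequence they held. The share was 86.1% for Zscan4f, 83.6% for Zscan4c, 43.9% for Zscan4d, 29.4% for Dux and 13.6% for Zfp352. The median of all protein-coding genes was 4.49%, with quartiles of 2.65% and 9.37%, and 2.34% of genes were at least as repeated as Zscan4f and 17.7% as Zfp352. In the gene body it was 96.4% for Zscan4f, 89.7% for Zscan4c, 58.2% for Dux, 48.3% for Zscan4d and 4.78% for Zfp352. The gene bodies of Zscan4c and Zscan4f were 99.3% identical, whereas Zscan4d was 90.5% identical to Zscan4c and 90.4% to Zscan4f.

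Genes with more repeated sequence had fewer regions of every mark. Among 17109 genes with under 10% repeated stretches in the window, 83.5% had female H3K4Me1, and among 644 genes with 80% or more, as for Zscan4c and Zscan4f, 16.6% had it. For female H3K27Ac these shares were 76.2% and 25.9%, and for female H3K27Me3 61.8% and 13.7%. Genes with no region of any mark rose in share from 7.88% to 62%. In the class of 40 to 80%, which held Zscan4d, 51.2% of 601 genes had no region, and in that of 10 to 40%, which held Dux and Zfp352, 37.5% of 4013 genes had none. The lack of H3K4Me1 at the 5 genes was thus met at 56.6%, 74.4% and 81.7% of genes in the 3 more repeated classes. Whether few regions in repeated sequence came from the placement of reads or from the chromatin was not tested.

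**Figure D4:**
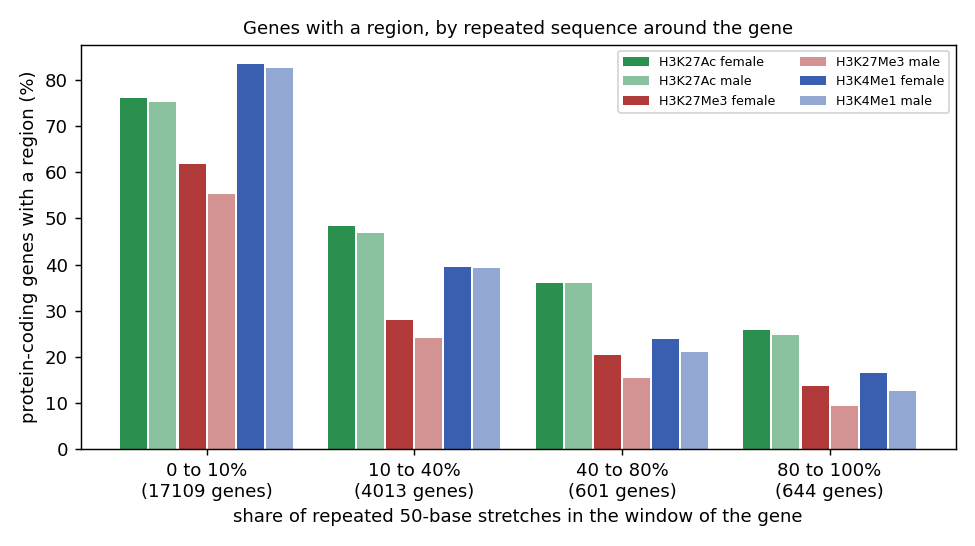
Percent of protein-coding genes with a region in their window for each list (bars), by the share of repeated 50-base stretches in the window. Every list falls from the least to the most repeated class, for female H3K4Me1 from 83.5% to 16.6%.

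Other genes expressed in the 2-cell embryo were compared from a list of 35, of which 27 had a gene model. Of these, 17 had no region of any mark, among them Usp17la, Usp17lb, Usp17ld and Tdpoz1, and 22 had no H3K4Me1. Over all protein-coding genes, 15.9% had no region and 25.2% no H3K4Me1. Over genes with 40 to 80% repeated stretches these shares were 51.2% and 74.4%. Among the 27 genes, H3K27Ac was found at 6 (22.2%) in the female list and 4 (14.8%) in the male list, and H3K27Me3 at 4 (14.8%) in each. The shares over all protein-coding genes were 68.7% and 67.7% for H3K27Ac and 53.3% and 47.3% for H3K27Me3, and those over genes with 40 to 80% repeated stretches were 36.1% in both lists for H3K27Ac and 20.5% and 15.5% for H3K27Me3. In the female list only, H3K27Ac was found at Usp17le (2799 bp), Gm8994 (3799 bp) and B020004J07Rik (2399 bp), and in the male list only at Rfpl4 (9798 bp). H3K27Me3 was in the female list only at Gm5662 (4999 bp) and Gm2016 (5599 bp), and in the male list only at Gm8994 (4398 bp) and Obox3 (2999 bp). Of all protein-coding genes, 3.26% had female but no male H3K27Ac, and 2.26% had male but no female H3K27Ac. For H3K27Me3 these shares were 10.2% and 4.27%. Such single-sex shares were not counted by class of repeated sequence. The 2-cell genes of this list had a median share of repeated stretches of 41.2% (3.85 to 99.3%), known for 26 of them. Some thus lay below or above the class of 40 to 80%, and they were not matched to a class one by one. Tdpoz2 is annotated as a pseudogene.

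H3K4Me1, which all 5 members lacked, was present at every regulator with a gene model. The window includes the gene body. Long regulators such as Ehmt1, Smchd1, Usp7 and Tet1 thus had larger windows than the 40001 to 44812 bp of the members. Gene length was not matched. The list of activators had 6 genes with a model, which included the DNA-binding proteins Dppa2 and Dppa4 and the tumour suppressor Trp53. All 6 had H3K27Ac and H3K4Me1 in both lists, with 25997 bp of female and 29396 bp of male H3K27Ac at Dppa2. H3K27Me3 was in the female list only at Tet1 (4799 bp) and Tet2 (999 bp), which encode enzymes that oxidise 5-methylcytosine. The list of repressors had 26 genes, and all 26 had H3K27Ac and H3K4Me1 in both lists. Over all protein-coding genes these shares were 68.7% and 67.7% for female and male H3K27Ac and 72.1% and 71.1% for H3K4Me1. Among genes with under 10% repeated stretches, 76.2% had female H3K27Ac and 83.5% female H3K4Me1. Female H3K27Me3 was found at 18 repressors (69.2%) and male H3K27Me3 at 13 (50%), against 53.3% and 47.3% of all protein-coding genes and 61.8% and 55.3% of those with under 10% repeated stretches. H3K27Me3 in 1 list alone, which 10.2% of all protein-coding genes had for the female list, was found in the female list at 6 repressors. These were the corepressor Trim28 (9399 bp), the H3K9 methyltransferase Ehmt2 (7598 bp), the Polycomb subunit Rybp (13998 bp), the MYC partner Max (2799 bp), the deubiquitinase Usp7 (7199 bp) and the maintenance DNA methyltransferase Dnmt1 (3199 bp). Rnf2, a Polycomb ubiquitin ligase, had a region of 599 bp in the male list only. Over all protein-coding genes, 4.27% had H3K27Me3 in the male list only. The regulators lay in little repeated sequence, with a median share of 4.47% for repressors and 7.27% for activators.

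**Figure D5:**
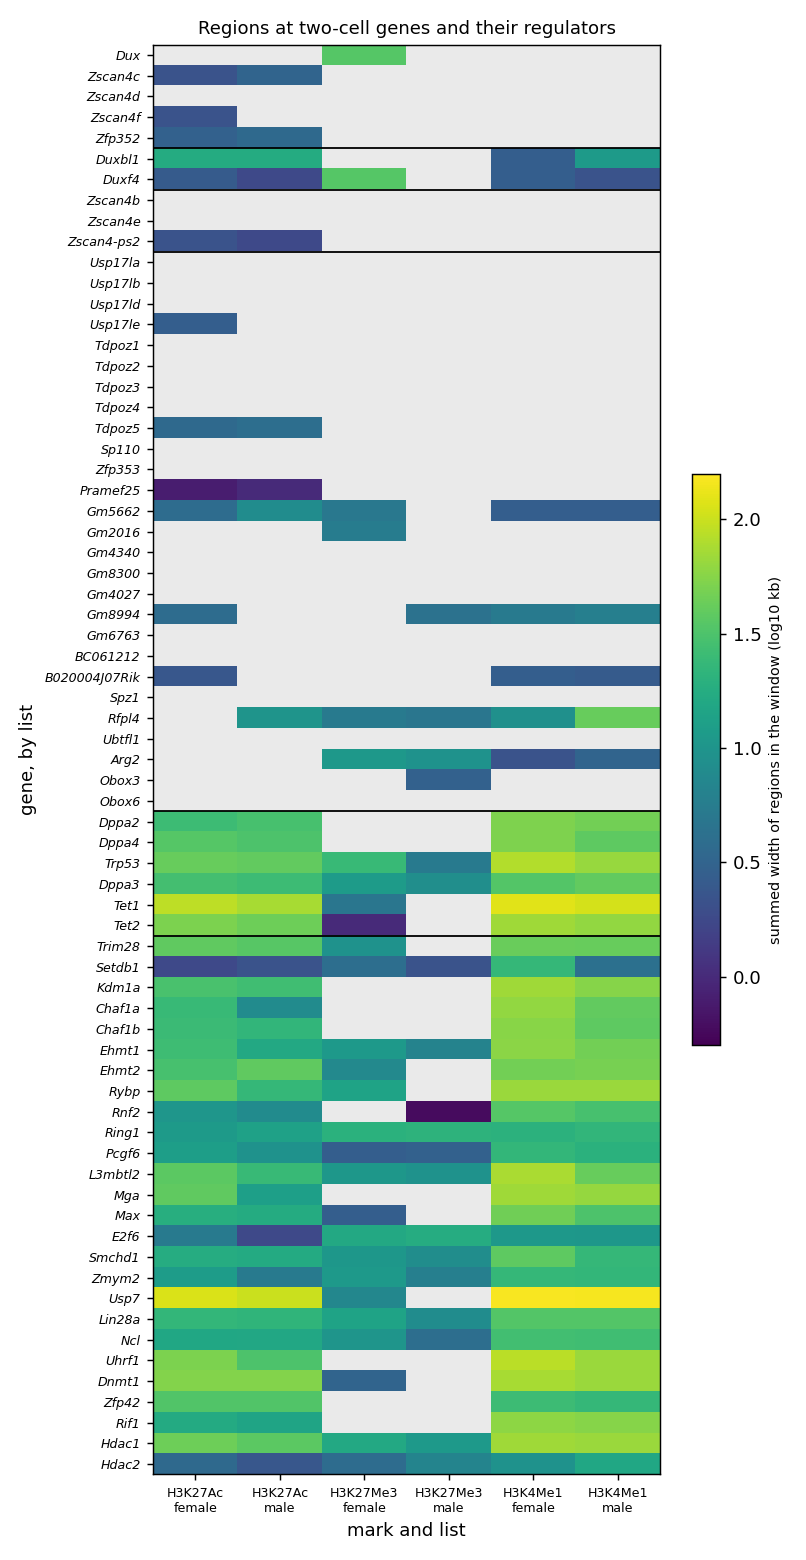
Summed full width of the regions that overlap the window of each gene (rows) in each list (columns), also where a region runs past the window. The scale is log10 in kb, with grey for no region and lines between gene lists (from the top, the 5 genes, Dux family, Zscan4 family, other 2-cell genes, activators, repressors). The activators and repressors have H3K27Ac and H3K4Me1 in every list, and most 2-cell genes have none.

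The combination of lists with a region at Dux was shared by 267 other genes (1.19%), that at Zscan4c and at Zfp352 by 693 each (3.1%), that at Zscan4f by 145 (0.648%), and the absence of all marks at Zscan4d by 3559 (15.9%). Outside the gene lists, those most like Dux were 4933403O03Rik and Gm10807, whose gene models lie wholly in the same array and share its region, and Speer4e on chromosome 5, with a female H3K27Me3 region of 33999 bp. Zscan4c was most like Gm17093 and Napg, each with 2199 bp of female and 3399 bp of male H3K27Ac, and Zfp352 like Golgb1, with 2999 bp and 3599 bp. Zscan4f had the same widths as 4930568D16Rik, Dcpp3 and Gm2237. Likeness was the distance over the 6 summed widths, log2(width + 200 bp), and no function is read from it. In the ES cell check, the 8 pluripotency markers all had H3K27Ac and H3K4Me1 in both lists. Shares over all protein-coding genes were 68.7% and 67.7% for female and male H3K27Ac and 72.1% and 71.1% for H3K4Me1. Of 8 fibroblast markers of the feeder cells, 4 had female and 5 had male H3K27Ac, with none at Prrx1, Thy1 and Postn in either. The summed H3K27Ac width was 2199 bp in the female and 10397 bp in the male list at Col1a1, 11398 bp and 28197 bp at S100a4, 4599 bp and 6199 bp at Lum, 0 bp and 1999 bp at Twist1, and 2999 bp and 2599 bp at Col1a2, so that it was wider in the male list at 4 of 5. Residual feeder DNA was not tested at the 5 genes.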

How the data were processed

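The authors sequenced ChIP libraries as single-end reads of 50 bases and used Bowtie2 with its defaults for alignment to mm9 and Bedtools for enrichment; the submitters' processing notes name Bowtie and deepTools. The labels name a different sequencer than the methods. The deposited values are start and end positions in bp, with all starts on a 200 bp grid; not given in the sources used here were the caller, its threshold, how the IgG and input controls entered the lists, and the merging of lines. No column was left unmapped (0).

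GENCODE M1 supplied the gene models, on NCBIM37, which is mm9. Regions were assigned by an overlap of at least 1 bp with the window (Python 3.11.15, NumPy 2.4.6), and counts were checked against Bedtools 2.31.1 (6 of 6 lists equal). Repeated stretches were counted with Numba 0.67.0 and tested on simulated sequences (2 of 2 lengths recovered). Copies were found with BLAST 2.17.0 and alignments made with Biopython 1.88. The members and gene lists, and the alternatives, were chosen with earlier results of these data known; copies, parts of regions and classes of repeated share were chosen after seeing the regions. Named were the 5 members, all Dux and Zscan4 family genes, list genes with a region in a single sex list and up to 4 further genes per list, and up to 3 most similar genes per member. Coordinates are from 1. No result was tested, since each list is without replicates. Alternatives changed the window, start sites, regions used, gene types and stretch length.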

Additional observations from a re-analysis of the deposited data

How the results depend on the processing

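The female H3K27Me3 region at Dux, and its absence from the male list, were found under every alternative window, start site, set of regions and overlap rule. None of these alternatives could have changed this. The region covers the whole gene and is among the widest of its list, and the nearest male region lies 334 kb from the 5′ end. With a window of the body or 5 kb, H3K27Ac was left at 1 gene in each list (Zfp352). Within 2 kb of a start site, or with the widest 50% of each list, it was left at 0 genes in both, so the distal H3K27Ac sites rest on the 20 kb window and on regions narrower than the median. With 50 kb, H3K4Me1 was gained at 1 gene (Dux) in each list, and H3K27Ac at Dux too. Zscan4d had none under any of these.

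Percentages of protein-coding genes with a region are given for H3K27Ac, H3K27Me3 and H3K4Me1 in turn, female and then male. With 5 kb they were 58.8 and 58.3, 40.5 and 35.4, and 67.0 and 65.4. With 50 kb they were 80 and 78.8, 67.3 and 61.6, and 77.9 and 77.5. Within 2 kb they were 50.6 and 50.5, 32.9 and 28.8, and 60.6 and 59.4. With the widest 50% they were 48.1 and 46.6, 40.4 and 33.7, and 58.5 and 56.9. With all annotated genes they were 58.8 and 57.5, 45.1 and 39.5, and 62.3 and 61.1. With equal numbers of regions the female values were 65.6, 49.3 and 69.7.

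Repeated shares in percent are given for Dux, Zscan4c, Zscan4d, Zscan4f and Zfp352 in turn. In the gene body they were 58.2, 89.7, 48.3, 96.4 and 4.78, within 2 kb of a start site 65.3, 82.4, 42.9, 84.9 and 12, and with 36 bases 35.5, 89.4, 56.7, 91.0 and 20.9. Dux lay above Zscan4d in the gene body and within 2 kb, and below it in the window.

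No paired analysis was possible because the lists carry no replicate number and no result comes from a test. Read depth is unknown, and a list gives no measure of how near a missing region was to the threshold. Reads from CAST/EiJ copies of the arrays were not examined apart from those of C57BL/6.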
